A study of Homo sapiens with 3 samples.

Results

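KMS11 cells infected with a lentivirus that carried the hairpin shMMSET#4 were compared with KMS11 cells infected with a lentivirus that carried shLuc, a control hairpin against luciferase, which human cells lack. The comparison uses 2 of the 3 arrays of the series, 1 for each hairpin, and the array of the other MMSET hairpin enters no step. Genes were taken through probe sets that carry 1 gene symbol, which gave 19775 genes, and 11829 of them had at least 1 informative probe set, meaning a mean log2 signal above the median of all signals on the 2 arrays. KMS11 is an established human multiple myeloma line with the t(4;14) translocation. Both groups were cultured alike, received virus with polybrene, had the medium changed after a day and were collected at 48 h for total RNA, and both are cell pools with no stated selection for infected cells. The share of cells that carried a hairpin, the hairpin sequences and the amount of MMSET protein are not given in the sources used here. According to the series title the study asks about transcription factors that act downstream of MMSET in such cells. With 1 array for each hairpin there is no replicate, so differences are described by size, with the agreement among a gene's probe sets as a check of the measurement, and no p-value is given.

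MMSET, now named NSD2, encodes an enzyme that places dimethyl groups on lysine 36 of histone H3, a mark found over transcribed genes. In t(4;14) myeloma the translocation puts NSD2 under immunoglobulin enhancers, which raises its expression, and spreads this mark while the repressive lysine 27 trimethylation by EZH2 shrinks. Myeloma cells are malignant plasma cells, which live by secreting antibody and rely on transcription factors such as IRF4 and XBP1.

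The cells on both arrays carried the marks of this line. All 10 plasma cell markers were informative, among them JCHAIN, TNFRSF17 (BCMA) and XBP1, as were all 4 genes tied to this line, NSD2, FGFR3, MAF and CCND2. None of the 9 myeloid markers on the array was informative. Of the others on the array, 3 of 10 T and NK cell, 3 of 10 fibroblast, 2 of 6 erythroid and 6 of 10 epithelial markers were. Among all genes 11829 of 19775 were informative, so the epithelial share was about that of all genes. The deposited signals had been scaled to a common trimmed mean, 500.1 on each array, yet the median probe set signal was 77.6 with shLuc and 59.6 with shMMSET#4. All 42 probe sets for the bacterial and phage transcripts that are added as controls were lower on the shMMSET#4 array, with a median log2 ratio of -0.57 and a range from -0.91 to -0.23. Whether equal amounts were added is not stated. Scaling the arrays to the same median moved the median log2 ratio of all informative genes from -0.03 to 0.36, and scaling them to the added controls, chosen after seeing the data, moved it to 0.54. Quantile normalization moved it to 0.04. Between the ends of the ACTB transcript, a check of RNA integrity and labelling, the 3' signal was 1.70 log2 units above the 5' signal with shLuc and 1.14 with shMMSET#4. For GAPDH the same check gave 0.04 with shLuc and 0.002 with shMMSET#4, so the arrays differed little there. The part of any of these in the results was not tested.

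**Figure D1:**
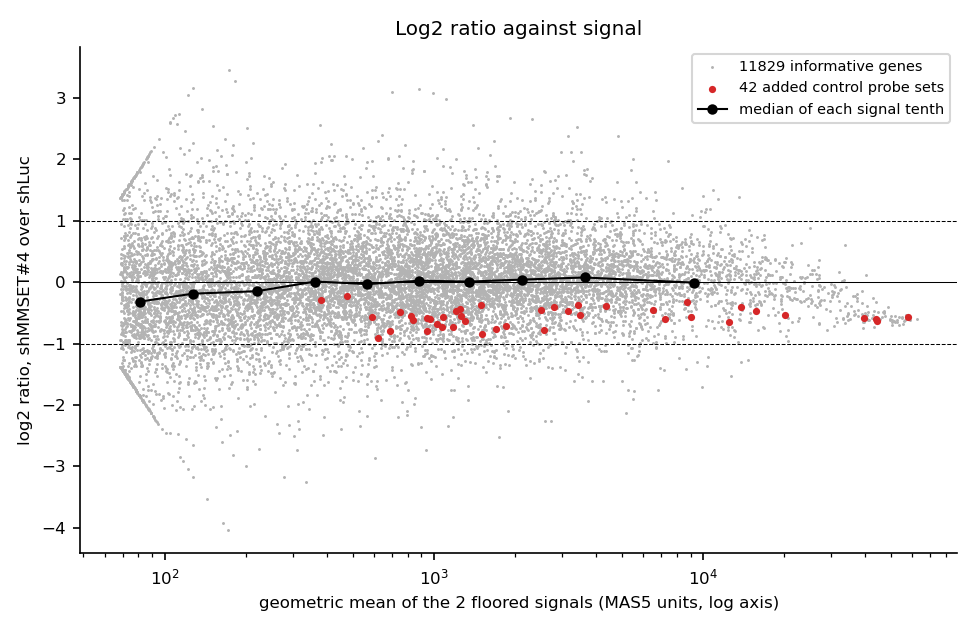
Log2 ratio of shMMSET#4 over shLuc (y axis) against the geometric mean of the floored signals on the 2 arrays (x axis, log scale) for 11829 informative genes (grey), for 42 added control probe sets (red) and as the median of each decile of genes by signal (black). The red points lie below 0 at all signals, and the black points run from -0.32 to -0.15 in the dimmest 3 deciles and from -0.03 to 0.08 in the others. Dashed lines mark 2-fold.

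NSD2 itself was modestly lower on the array labelled shMMSET#4 by its brightest probe set, and its 6 probe sets gave different sizes. On the brightest, the signal was 10299.8 with shLuc and 7476 with shMMSET#4, a log2 ratio of -0.46. The next probe set read 5617 and 5139 (-0.13), and the others read 2165 and 1260.1 (-0.78), 1492 and 1054 (-0.50), 1239 and 403 (-1.62), and 1027 and 1063 (0.05). So 5 of 6 were lower, and 1 of them passed 2-fold. In the brightest probe set the direction held after quantile normalization (-0.52) and median scaling (-0.08) and turned to 0.10 with scaling to the added controls. With probe sets marked _x_at or _s_at left out, the probe set that read 1239 and 403 stood for the gene, at -1.62. NSD2 transcripts differ in length, and which of them the hairpin targets is not given in the sources used here.

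On the brightest probe set of each gene, 904 of 11829 genes passed 2-fold on the lower side (7.64%) and 772 on the higher side (6.53%) in the shMMSET#4 cells. At 1.5-fold the counts were 2215 lower (18.7%) and 1907 higher (16.1%). The split between the directions depends on the scaling: 53.9% of the genes past 2-fold were lower in the deposited scaling, 37.8% after quantile normalization, 16.5% after median scaling and 8.29% after scaling to the added controls. Dim genes made up much of the lower side, since 22.6% of the dimmest decile of genes by signal were at least 2-fold lower against 2.11% of the brightest decile. Of the 904 lower genes, 147 had the shMMSET#4 signal at the floor of 42.5, below which signals were not read, and 73 of the 772 higher genes had the shLuc signal there. Such ratios give the smallest fold that the floor allows and carry the words "at least".

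A gene read by several probe sets gives a check on the measurement, though not on the condition. Among 5854 genes with at least 2 informative probe sets, the brightest pair differed by 1.25-fold in ratio for the median gene and by up to 2.65-fold for 95% of genes. Where both had mean signals above 1000, for 1544 genes, these values were 1.14-fold and 1.64-fold. In 58.0% of the genes all informative probe sets had the same sign. All informative probe sets passed 2-fold in 129 genes on the lower side (2.2%) and 96 on the higher side (1.64%). Of the 904 lower genes, 567 had only 1 informative probe set, 129 had full agreement, 155 had the same sign throughout without all passing 2-fold, and 53 had a probe set of the other sign. The 772 higher genes divided into 473, 96, 114 and 89 in the same order. Of the genes in full agreement, 57.3% were lower in the deposited scaling, 39.2% after quantile normalization, 13.1% after median scaling and 5.4% after scaling to the added controls.

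**Figure D2:**
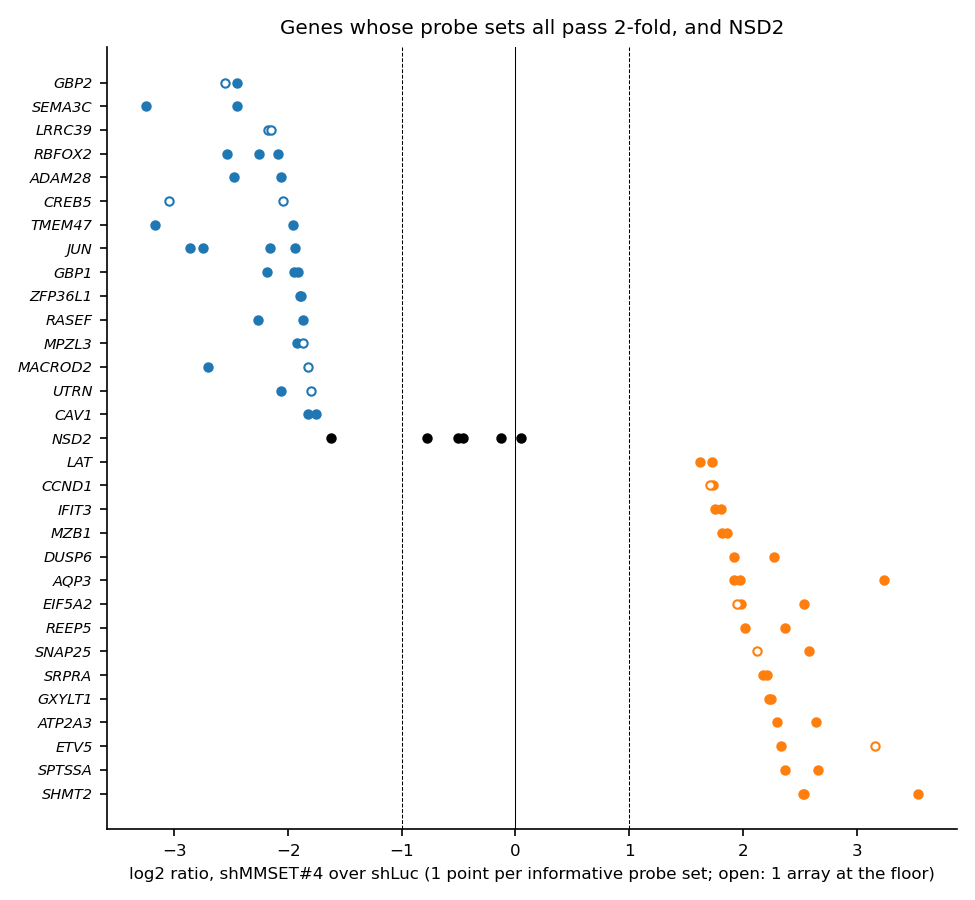
Log2 ratios of shMMSET#4 over shLuc for every informative probe set of the 15 lowest and 15 highest genes whose probe sets all passed 2-fold, and of NSD2 (black). Each point is 1 probe set and open points have an array at the floor. The 30 genes lie wholly beyond the dashed 2-fold lines, while the 6 NSD2 points run from -1.62 to 0.05.

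The 15 lowest genes in full agreement had varied functions. GBP2, a guanylate-binding protein, had signals of 246 and 251 with shLuc on its 2 probe sets and 44.9 and 15.5 with shMMSET#4, which is 5.48-fold lower on the first. GBP1, its relative, was lower on 3 probe sets, with log2 ratios of -1.91, -1.95 and -2.18. SEMA3C, a secreted semaphorin, read 1039 and 245 with shLuc and 109 and 45.0 with shMMSET#4. The 2 arrays therefore stood far apart for these genes on every probe set, with shMMSET#4 close to the floor for GBP2 and SEMA3C.

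JUN, a subunit of the AP-1 transcription factor, was lower on 4 of 4 probe sets. Its signals were 7346, 2365, 1406 and 554 with shLuc and 1919, 352, 314 and 76.3 with shMMSET#4, with log2 ratios from -2.86 to -1.94. CREB5, a bZIP factor that binds as a dimer with JUN, was at least 8.25-fold lower, from 351 to the floor. ZFP36L1, which promotes the decay of AU-rich messenger RNAs, went from 10579 with shLuc to 2847 with shMMSET#4 (3.72-fold lower), and a second probe set gave -1.89. RBFOX2, a splicing regulator, was lower on 3 probe sets, with ratios between -2.54 and -2.09. These regulators were bright with shLuc apart from CREB5, so most of their ratios are far from the floor.

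CAV1, the coat protein of caveolae, had signals of 9707 and 2884 and log2 ratios of -1.75 and -1.82. RASEF, a Rab GTPase, had signals of 5677 and 1184 (4.79-fold lower). UTRN, which links the cytoskeleton to the matrix as a relative of dystrophin, was 4.17-fold lower, ADAM28, a metalloproteinase, 4.18-fold, and MPZL3, a membrane protein of the immunoglobulin fold, 3.80-fold. TMEM47, a membrane protein of cell junctions, was 8.98-fold lower, MACROD2, an ADP-ribose hydrolase, 6.53-fold and LRRC39 at least 4.52-fold. For LRRC39 both probe sets reached the floor with shMMSET#4, so its size is a lower bound.

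The 15 highest genes in full agreement were varied as well. SHMT2, the mitochondrial serine hydroxymethyltransferase that feeds one-carbon metabolism, went from 1416 with shLuc to 8189 with shMMSET#4, and its 3 probe sets gave 2.53, 2.54 and 3.54. SPTSSA, a small subunit of serine palmitoyltransferase, went from 923 to 5842 (6.33-fold). ATP2A3, a calcium pump of the endoplasmic reticulum, was 4.93-fold higher, GXYLT1, a xylosyltransferase, 4.70-fold, and SRPRA, the receptor subunit that docks ribosomes bound by the signal recognition particle, 4.52-fold. REEP5, which shapes the tubules of the endoplasmic reticulum, went from 509 to 2068. MZB1, a plasma cell chaperone of the endoplasmic reticulum, went from 1930.2 to 6817, with 1.82 and 1.86 on its probe sets. The list of endoplasmic reticulum folding genes, given with the other gene lists, showed smaller differences.

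ETV5, an ETS factor that responds to ERK, was at the floor with shLuc and read 380.1 with shMMSET#4, at least 8.93-fold higher, and its other probe set read 55.5 and 279. DUSP6, the phosphatase that restrains ERK, went from 144 to 543 (3.78-fold). AQP3, an aquaglyceroporin, was bright on both arrays, 3753 and 14761, with ratios of 1.98, 1.92 and 3.24 on 3 probe sets. IFIT3, an interferon-induced antiviral gene, went from 692 to 2417 (3.49-fold). SNAP25, a SNARE protein, was 5.99-fold higher, EIF5A2, a translation factor, 5.82-fold, CCND1 (cyclin D1) 3.33-fold and LAT, an adaptor of T cell receptor signalling, 3.31-fold. CCND1 was dim on both arrays, 49.7 and 166, beside CCND2 at 19310.3 and 23826, the D-type cyclin on the list of genes tied to this line, although signals of different probe sets are not compared as levels.

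Each of these 30 genes kept its direction under every setting that gave it a value, the scalings included. Of them, 28 also stayed past 2-fold on the brightest probe set in every such setting, and LRRC39 (-0.67) and CCND1 (0.45) did not with a floor at the 60th percentile.

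Genes with only 1 informative probe set can show large ratios that no second probe set checks. Those named here were above the floor on both arrays, with a probe set not marked _x_at or _s_at. This leaves out GPS1, WSB2 and UNG, which are given with their lists. The lowest was GRB14, an adaptor that dampens insulin receptor signalling (563 with shLuc and 71.0 with shMMSET#4, 7.93-fold). Next came DCC, the netrin receptor (1634 and 224, 7.28-fold), ZC2HC1B (7.05-fold), RELN, the secreted protein reelin (6.62-fold), and LZTS3 (5.87-fold). The highest were PRKAR2B, which encodes a protein kinase A regulatory chain (58.7 and 566, 9.64-fold), NLRP7, an inflammasome-related gene (394 and 3128, 7.95-fold), WNT10B, a WNT ligand (6.71-fold), PIH1D1, a cofactor of the HSP90 machinery (6.39-fold), and IGHG1, the constant region of IgG1 (5.68-fold). IGHG1 (85.3 and 484) has 5 probe sets on the array and DCC has 3, and in each gene all but 1 fell below the filter. All 10 genes stayed past 2-fold in the same direction under every setting that gave them a value.

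In 286 of 5854 genes (4.89%), 2 informative probe sets were at least 1.5-fold from shLuc in opposite directions, so the array gives no single answer. HNRNPC, a nuclear RNA-binding protein, had 6 informative probe sets with ratios from -1.75 to 2.47, although its brightest read 15146 and 16829.9 (0.15). PAWR, a pro-apoptotic regulator, had 7 with ratios from -1.69 to 2.04. KLHL8, a cullin adaptor, ranged from -2.63 to 0.81 and ATPSCKMT, a lysine methyltransferase, from -1.39 to 2.01. MRC2, a collagen receptor, ranged from -1.43 to at least 2.34, the latter with shLuc at the floor. No direction is assigned to these 5 genes.

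Pathways are described next by lists of genes, with a member counted as lower or higher at 1.5-fold on its brightest probe set, beside the 18.7% and 16.1% of all informative genes that passed this threshold. The lists are related to the tissue and to pathways, and their counts and medians are descriptions with no test.

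The genes that copy DNA were higher with shMMSET#4. Of 53 informative members of the DNA replication and G1/S list, 28 were at least 1.5-fold higher and none was lower, and the median log2 ratio was 0.63. The median stayed positive after quantile normalization (0.59), median scaling (1.01) and scaling to the added controls (1.20). UNG, the uracil glycosylase that removes uracil from DNA, went from 343 to 2890 on 1 probe set (8.43-fold). CDC45, part of the replicative helicase, went from 335 to 1357 (4.05-fold). GINS2, another part of this helicase, went from 877 to 3261 (3.72-fold), and POLD1, the catalytic subunit of polymerase delta, from 490.2 to 1717 (3.50-fold). A second GINS2 probe set gave 1.13, while UNG, CDC45 and POLD1 rest on 1 probe set each.

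The ring helicase showed the same direction in each subunit, chosen here after the values were seen. The ratios on the brightest probe sets of MCM2 to MCM7 were 1.43, 0.95, 1.12, 1.64, 1.16 and 0.85. MCM2 went from 2055 to 5543 and MCM5 from 1534 to 4784. CDC6, which loads the helicase at origins, had ratios of 1.79 and 1.49, and FEN1, the flap endonuclease of the lagging strand, 1.37 and 1.56. RPA1, the large subunit of the single-strand binding protein, had the lowest ratio of the list, -0.32.

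Genes of mitosis did not share this. Of 48 informative members, 5 passed 1.5-fold downward and 5 upward, and the median was -0.08, turning to 0.30 with median scaling and 0.49 with the added controls. CENPE, the kinetochore motor, read 7477 and 3698 (-1.02), KIF2C, a microtubule depolymerase, -0.91, CENPF -0.66 and TOP2A, the topoisomerase of chromosome segregation, -0.63. MAD2L1, a spindle checkpoint protein named after its value was seen, was the highest at 1.38. The medians of the replication and mitosis lists thus lay 0.71 log2 units apart on the same arrays, a distance that a common scaling factor leaves as it is. The DNA double-strand break and Fanconi repair list lay between them, with 9 of 36 members higher, 2 lower and a median of 0.32. Its highest member, MRE11, a nuclease subunit, had 1.72 on the brightest probe set and -0.11 on the other, followed by EXO1, an exonuclease (1.02), FANCG (0.93) and BLM, a helicase (0.78).

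Cytosolic heat shock chaperones were higher as a group. Of 17 informative members, 9 were at least 1.5-fold higher and 1 was lower, with a median of 0.66 that stayed positive under every scaling (0.66 to 1.23). HSPH1, a nucleotide exchange factor for HSP70, read 1305 and 3956 and had 1.60, 1.63 and 1.53 on 3 probe sets. FKBP4, an HSP90 cochaperone, read 1116 and 2787 (2.50-fold), CHORDC1, another HSP90 cochaperone, 1642 and 3688 (2.25-fold), and STIP1, which bridges HSP70 and HSP90, 965 and 1987 (2.06-fold). HSF1, the transcription factor that drives these genes, was the member on the lower side (-0.66) and is named after its value was seen.

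Promoter sequences of the replication, interferon and heat shock genes are shown because many members of these lists differed between the arrays and their known regulators bind short motifs. The sequences come from RefSeq promoters of GRCh38.p14, 250 bases before to 50 after each start, on the strand of the gene. Motifs were searched on both strands. The E2F motif was TTTCCCGC or TTTGGCGC, the heat shock element (HSE) was GAANNTTCNNGAA and the core of the interferon-stimulated response element (ISRE) was GAAANNGAAA. Matches of one motif may overlap each other. Each window shows the match in capitals with its flanks, and a match is a description of the letters and not a bound site. The first 4 are replication genes with an E2F match and the next pair are chaperone genes with an HSE match, all on the higher side. Carriers not shown include ORC3 (-0.23) and E2F2 (-0.17) for E2F and DNAJB6 (0.41) for HSE. The last 5 are interferon genes with an ISRE match, 3 on the higher side and 2 on the lower side. CDC6, MCM6, PCNA, DNAJA1, SAMD9 and the carriers not shown were chosen after their values were seen.
CDC6 (chr17:40287861-40287918, + strand): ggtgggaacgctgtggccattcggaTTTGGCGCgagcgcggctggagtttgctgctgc
MCM6 (chr2:135876501-135876558, - strand): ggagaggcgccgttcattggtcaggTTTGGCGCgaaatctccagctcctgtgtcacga
GINS2 (chr16:85688953-85689010, - strand): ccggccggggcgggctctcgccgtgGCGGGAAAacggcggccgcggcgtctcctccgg
PCNA (chr20:5126649-5126706, - strand): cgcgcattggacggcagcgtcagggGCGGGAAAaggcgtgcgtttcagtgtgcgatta
CHORDC1 (chr11:90223072-90223134, - strand): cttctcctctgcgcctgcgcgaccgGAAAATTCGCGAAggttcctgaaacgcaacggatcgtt
DNAJA1 (chr9:33025251-33025313, + strand): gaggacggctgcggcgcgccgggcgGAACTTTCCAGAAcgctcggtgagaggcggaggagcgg
IFIT3 (chr10:89327850-89327909, + strand): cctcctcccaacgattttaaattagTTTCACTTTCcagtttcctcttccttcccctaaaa
HERC5 (chr4:88457020-88457079, + strand): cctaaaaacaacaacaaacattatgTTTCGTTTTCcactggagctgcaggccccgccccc
DDX60 (chr4:168318806-168318865, - strand): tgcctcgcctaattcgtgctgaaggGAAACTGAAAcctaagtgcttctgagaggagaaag
GBP1 (chr1:89065301-89065360, - strand): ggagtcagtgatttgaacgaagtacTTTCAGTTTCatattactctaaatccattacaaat
SAMD9 (chr7:93118081-93118140, - strand): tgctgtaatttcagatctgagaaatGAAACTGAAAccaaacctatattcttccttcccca

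The E2F motif was in 19 of 46 replication promoters in the table (41.3%), in 2 of 41 mitosis promoters (4.88%) and in 2.31% of all 27305 promoters. Within the replication list the informative genes with and without a match did not lie apart: 9 of 19 with a match and 15 of 27 without were at least 1.5-fold higher, with medians of 0.55 and 0.66. PCNA, the sliding clamp of the polymerases, had a ratio of 0.93, and MCM6 1.16. The heat shock element was in 4 of 20 chaperone promoters and in 0.487% of all promoters, and DNAJA1, an HSP40 cochaperone, had 0.79. Its informative carriers numbered 3, with a median of 0.79, beside 0.60 in the 12 without.

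**Figure D3:**
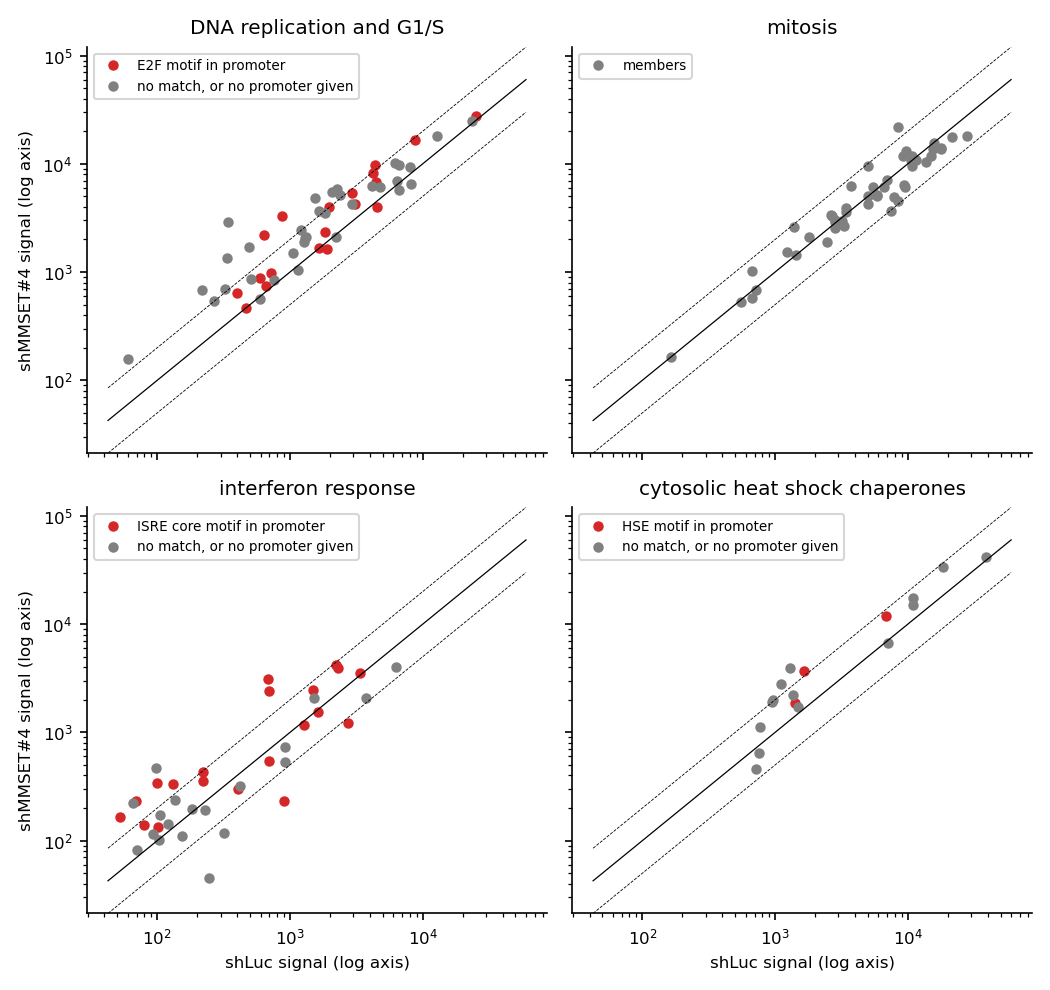
Signal with shMMSET#4 (y axis) against signal with shLuc (x axis), both in MAS5 units on log axes, for the informative members of 4 lists, each point a gene on its brightest probe set. Red points have the named motif in the RefSeq promoter; solid lines mark equal signals and dashed lines 2-fold. Replication (28 of 53) and chaperone genes (9 of 17) at least 1.5-fold higher lie above the solid line, mitosis genes lie around it, and interferon genes lie on both sides.

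Interferon response genes differed in both directions. Of 39 informative members, 16 passed 1.5-fold upward and 7 downward, with a median of 0.23 (0.58, 0.72 and 0.90 after quantile, median and control scaling, and -0.08 over the 16 members that pass a filter at the 75th percentile). The highest were IFI35 (97.4 with shLuc and 467 with shMMSET#4, 4.80-fold), HERC5, the ligase that attaches ISG15 (683 and 3110.5, 4.55-fold), IFIT3 (3.49-fold) and DDX60, a helicase of antiviral sensing (99.5 and 344, 3.46-fold). The lower members, named after their values were seen, were GBP2 (-2.45), GBP1 (-1.95), RIGI, the cytosolic RNA sensor (-1.44), SAMD9 (-1.18), SAMD9L (-0.83), IRF9, a subunit of the ISGF3 factor (-0.80), and IFI16, a DNA sensor (-0.62).

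The ISRE core was in 25 of 39 interferon promoters (64.1%) and in 3.65% of all promoters. Among informative members with a promoter in the table, 12 of 20 with the motif were at least 1.5-fold higher and 2 were lower, with a median of 0.75. Of the 11 without it, 2 were higher and 4 were lower, with a median of -0.40. GBP1 and SAMD9 carried the motif and were on the lower side. IFI35, the highest of the list, and OAS1 (1.76, named after its value was seen) had no match to GAAANNGAAA and were on the higher side. Both promoters held TTCNNNGAA, another motif searched, which was in 10 of 39 interferon promoters and in 7.88% of all. IRF9 (-0.80) and IRF1 (-0.33), named after their values were seen, held it too. Lentiviral infection was common to both arrays, and the labels do not state the viral dose on each.

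The B cell and germinal centre list had 6 of 20 members higher and 6 lower, a median of 0.27, and -0.02 without probe sets that may cross-hybridise. Its class II genes were picked out after the values were seen. HLA-DPA1 read 401 and 1159 (2.89-fold) and gave ratios from 1.34 to 1.53 on its 3 probe sets, 1 of them at the floor with shLuc. HLA-DPB1 was 2.63-fold higher, and HLA-DMA, which loads peptide onto class II, was 2.43-fold higher. HLA-DRA had 1.20 and 1.24 on its probe sets and HLA-DMB 1.27. CD74, the invariant chain of class II, had 0.33 on the brighter of its probe sets and 0.69 on the other, and so was not past 1.5-fold. CIITA, the coactivator of class II genes, had the opposite sign, 557 with shLuc and 277 with shMMSET#4 (-1.01), as did BCL6 (-1.33) and EBF1 (-1.29), both B cell transcription factors. LY86, a partner of a Toll-like receptor relative, was 2.48-fold higher. MHC class I and peptide loading genes had 4 of 15 lower and 1 higher, with a median of -0.15 that turned positive with median scaling (0.23) and the added controls (0.41). Without probe sets marked _x_at or _s_at, 5 of 11 were lower and 1 higher, with a median of -0.41. NLRC5, the coactivator of class I genes, was 2.30-fold lower (1486 and 646), ERAP2, a trimming peptidase, -0.77, TAPBPL -0.61 and B2M -0.59. The class I heavy chains HLA-B (-0.03), HLA-C (-0.15), HLA-E (-0.06), HLA-F (0.51) and HLA-G (0.54), named after their values were seen, were all within 1.5-fold and are alike in sequence, so their probe sets may cross-hybridise.

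The transcription factors of plasma cells and myeloma were lower in part. Of 31 informative members, 13 were at least 1.5-fold lower and 3 higher, with a median of -0.38 (-0.41 after quantile normalization, -0.00 after median scaling and 0.18 with the added controls). MEF2C, a MADS box regulator in the B lineage, had -1.95, -1.65 and -0.43 on 3 probe sets. BHLHE41, a repressor of the circadian and B cell programmes, was 3.08-fold lower on 1 probe set (200 and 64.9). CREB3L2, an endoplasmic reticulum bound factor, read 5748 and 2046 on the brighter of its probe sets (2.81-fold lower) and 151 and 153, near equal, on a dim one. ZBTB20, a zinc finger repressor, had 7 informative probe sets that were all lower, from -1.45 to -0.17. ETS1, chosen after its values were seen, was the highest at 1.39 on the brightest probe set, while its others gave -0.01 and -0.69.

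Surface and secreted genes of plasma cells had 9 of 28 members lower and 5 higher, with a median of -0.21 that turned to 0.17 with median scaling and 0.36 with the added controls. DKK1, a WNT antagonist that myeloma cells secrete and that acts on bone, read 193 and 55.2 (3.50-fold lower). IL6R, the interleukin 6 receptor, read 3078 and 953 on its brightest probe set and -1.57 on the other. NCAM1 (CD56) was at least 3.11-fold lower and reached the floor. HGF, hepatocyte growth factor, had -0.88 on the brightest of 5 probe sets and 0.91 on another. CCR10, a chemokine receptor of plasma cells chosen after its value was seen, was the highest, 280.1 and 1474 (5.26-fold).

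Adhesion genes stood lower, with 10 of 20 informative members lower, 4 higher and a median of -0.45 (-0.49, -0.07 and 0.12 under quantile, median and control scaling, and 0.00 with a floor at the 60th percentile). ITGA8, an integrin alpha chain, read 2415 and 365 (6.62-fold lower), with -3.24 on a similarly bright probe set and 171 and 85.9 on a dim one. ITGB8, a beta chain that activates latent TGF-beta together with ITGAV, read 5950.1 and 1245 (4.78-fold lower), and ITGAV read 3910 and 1322 (2.96-fold lower). The integrin chains of lymphocytes ITGAL (1.19) and ITGB7 (0.89), chosen after their values were seen, were on the higher side. Among semaphorins, plexins and axon guidance genes, 7 of 24 were lower and 6 higher, the median was -0.07 and it turned positive under each scaling (0.15, 0.31 and 0.49). SEMA3C (9.52-fold lower) and DCC (7.28-fold lower) led it. PLXNA2, a semaphorin receptor, had -1.46 and 0.25, and PLXNA3 -1.12. The annexins had 3 of 13 members lower and 2 higher, with a median of -0.11 that turned to 0.27 and 0.46 under median and control scaling and was -0.50 without probe sets marked _x_at or _s_at. ANXA1, a phospholipid-binding protein with anti-inflammatory action, went from 644 to the floor, at least 15.1-fold lower. ANXA3 was 3.45-fold and ANXA4 2.24-fold lower, and S100A10, the partner of annexin A2, had -0.50 (0.06 with the added controls).

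The list of immediate early genes and feedback regulators of MAP kinases had members on both sides. Of 23 informative members, 9 were at least 1.5-fold lower and 5 higher, and the median was -0.07 (0.07, 0.31 and 0.50 under quantile, median and control scaling). CREB5, JUN (-1.94), FOS, the AP-1 partner of JUN (969 and 371, -1.39), and NR4A2, an orphan nuclear receptor (239 and 57.1, -2.07), had the lowest ratios. ATF3 (-1.30), JUND (-1.08), NR4A1 (-0.98), JUNB (-0.69) and DUSP1 (-0.65) followed, named after their values were seen. The 3 probe sets of ATF3 ran from -1.30 to -0.01. The 5 higher members, also chosen so, were ETV5, SPRED1, an inhibitor of RAS signalling (2.00), DUSP6 (1.92), DUSP4 (0.76) and SPRED2 (0.68). The 3 probe sets of DUSP4 ran from 0.06 to 0.99. Neither kind of gene stood on 1 side throughout: the immediate early genes EGR1 (0.51), IER2 (0.24) and IER5 (0.23) had positive ratios, while the inhibitors SPRY1 (-0.33) and DUSP2 (-0.07), like DUSP1, had negative ones. These, too, are named after their values were seen. The NF-kB list had 8 of 21 members lower and 4 higher, with a median of -0.31 that turned to 0.07 with median scaling and 0.25 with the added controls. PLEK, a platelet and leukocyte kinase substrate, was 3.05-fold lower (915 and 300.2), IER3, a stress response gene, 2.01-fold, TNFAIP3, the deubiquitinase that dampens NF-kB, 1.83-fold (11431 and 6254), and ICAM1, an adhesion molecule, 1.63-fold.

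**Figure D4:**
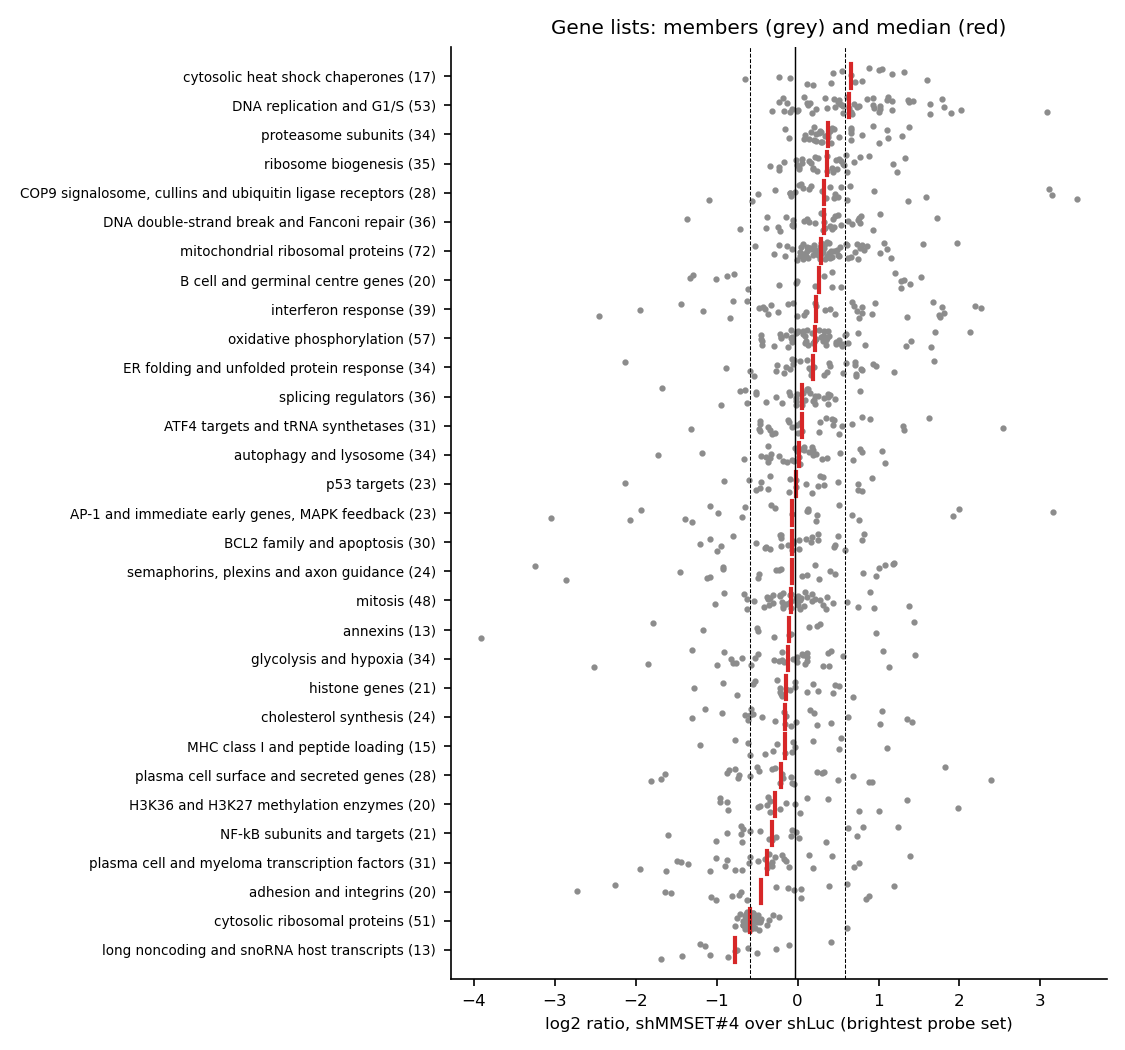
Log2 ratios of shMMSET#4 over shLuc in the deposited scaling for the informative members of 31 gene lists (grey points, brightest probe set, number of members in brackets), with each list's median in red. The solid line is the median of all informative genes (-0.03) and dashed lines mark 1.5-fold. Chaperone (0.66) and replication genes (0.63) have the highest medians and noncoding host transcripts (-0.78) the lowest, and these 3 keep their direction under each scaling. Many others do not, adhesion genes among them (-0.45 as deposited and 0.12 with the added controls). In all settings, 12 of 31 lists keep the sign of their median.

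The endoplasmic reticulum list, the secretory machinery of plasma cells, had 11 of 34 members higher and 3 lower, with a median of 0.18 that stayed positive under each scaling. CRELD2, a folding factor of the unfolded protein response, read 1289 and 4154 (3.22-fold higher). CANX (calnexin) read 6816 and 15529 and was higher on 4 probe sets, from 0.76 to 1.19. DNAJC3, a cochaperone that restrains the kinase PERK, was higher on 4 probe sets, from 0.56 to 2.25, and DERL3, of the degradation channel, had 0.94 and 1.96. EIF2AK3, the gene of PERK itself and chosen after its value was seen, was the lowest at 10824 and 2463 (4.39-fold lower). Targets of ATF4 and tRNA synthetases had 7 of 31 higher and 1 lower, with a median of 0.05, and the higher members were led by SHMT2, WARS1, the tryptophan synthetase (3.09-fold), PHGDH, which opens serine synthesis (698 and 1737, 2.49-fold), and CEBPB, a bZIP factor (2.46-fold). ATF4 itself, named after its value was seen, had -0.34.

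Proteasome subunits were higher, with 11 of 34 members higher, none lower and a median of 0.38 (0.33 to 0.94 over the scalings). The immunoproteasome subunits PSMB10 (2.61-fold) and PSMB8 (2.17-fold) stood beside PSMB5, the catalytic subunit that bortezomib binds (1699.5 and 4139, 2.43-fold), and PSMC3, an ATPase of the regulatory particle (2.15-fold). Members of the COP9 signalosome and cullin ligase list had 8 of 28 higher and 1 lower, with a median of 0.33. Without probe sets marked _x_at or _s_at it had 5 of 22 higher and 3 lower, with a median of 0.06. GPS1, a COP9 subunit, read 52.4 and 575 (10.97-fold higher), WSB2, a substrate receptor, 238 and 2046 (8.58-fold), both on 1 probe set. KLHL5, a cullin adaptor, was higher on 4 informative probe sets, from 0.64 to 3.14, while CUL5, a cullin, had 3 probe sets from 1.29 to 1.59 and 1 at -0.93.

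Both mitochondrial lists had positive medians under every scaling, small as deposited and after quantile normalization. The mitochondrial ribosomal proteins had 17 of 72 members higher and none lower, with a median of 0.29 (0.28 to 0.86 over the scalings), and oxidative phosphorylation had 9 of 57 higher and none lower, with a median of 0.21 (0.21 to 0.78). That share of higher genes in oxidative phosphorylation is about that of all genes, 16.1%. The absence of lower members depended on the probe sets. Without those marked _x_at or _s_at the mitochondrial ribosomal proteins had 8 of 39 higher and 4 lower (median 0.33), and oxidative phosphorylation had 6 of 44 higher and 5 lower (median 0.13). MRPL17 read 298 and 1171 (3.92-fold), MRPL24 923 and 2692 (2.92-fold), MRPS26 358 and 799.9 (2.23-fold) and MRPL10 1607 and 3444 (2.14-fold), all subunits of the mitochondrial ribosome. CYC1, cytochrome c1 of complex III, read 1682 and 7353 (4.37-fold) on its 1 probe set. ATP5F1D, a subunit of ATP synthase, had 1.69 and 0.51, NDUFB10, of complex I, 1.65 and 1.20, and UQCRC1, of complex III, 1.40. Ribosome biogenesis genes had 8 of 35 higher and none lower, with a median of 0.36, and 5 of 30 higher and 2 lower (median 0.23) without the probe sets so marked. BYSL (2.34-fold) and EXOSC5, an exosome subunit (2.27-fold), led the list among genes without conflict, whereas RRP12 had 1.33 on the brightest of 4 probe sets and -0.85, -1.28 and -1.60 on the others. IMP4 had 0.88.

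Cytosolic ribosomal proteins stood apart from these. Of 51 informative members, 25 were at least 1.5-fold lower and 1 was higher, and 50 had a negative ratio. The median was -0.58 in the deposited scaling, -0.20 with median scaling, -0.10 after quantile normalization and -0.02 with the added controls, and the number at least 1.5-fold lower was 0, 1 and 0 under these. RPL31 read 50889 and 30343, RPS19 70112 and 43783, RPS9 39345 and 24076, and RPL27A 633 and 372. RPL27A apart, these are among the brightest probe sets. The 52 other genes with mean signals above 30000 had a median of -0.33, with 8 lower and none higher, beside -0.59 for the 45 ribosomal protein genes in that range. The added control probe sets lay at a median of -0.57. A lower level of ribosomal protein transcripts cannot be told apart here from the scaling and from what the brightest probe sets share.

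Long noncoding and snoRNA host transcripts had 9 of 13 members lower and none higher, and their median stayed negative under each scaling, -0.78 as deposited, -0.82 after quantile normalization, -0.40 with median scaling and -0.21 with the added controls. SNHG32, a snoRNA host, read 11738 and 4374 (2.68-fold lower). CYTOR went from 138 to the floor, at least 3.24-fold lower. FTX, a noncoding gene of the X inactivation centre, read 1811 and 782, with -1.21 and -1.43 on its probe sets, and KCNQ1OT1, the imprinted antisense transcript, read 747 and 338, with -1.14 and -1.05. NORAD, a noncoding RNA that binds Pumilio proteins, was on the other side at 0.42 and is named after its value was seen.

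Noncoding genes as a class were counted over RefSeq gene types, in the deposited scaling. Of 635 informative lncRNA genes, 20.3% were at least 2-fold lower and 5.35% higher, beside 6.71% and 6.68% of 10962 protein-coding genes, with medians of -0.36 and -0.01. This direction depends on the scaling. The lncRNA median was -0.10 after quantile normalization (10.4% lower, 8.98% higher) and turned to 0.04 with median scaling (7.42% lower, 10.9% higher) and 0.23 with the added controls (5.02% lower, 14.6% higher). The medians of protein-coding genes were 0.05, 0.37 and 0.56 under these, above those of lncRNA genes in each. The lncRNA genes are dimmer, with a median signal of 130.3 against 808. In the upper 7 deciles of signal the shares lower were 14.5% of 152 lncRNA genes and 3.96% of 8035 protein-coding genes. Transcribed pseudogenes had 17.9% of 173 lower and 2.89% higher. In the deposited scaling the 3544 informative probe sets with no gene name had 29.2% at least 2-fold lower and 3.08% higher, with a median of -0.57.

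Among protein-coding genes the shares also varied with gene length. In the quartile with the longest span from start to end in RefSeq (median 139249 bases), 10.1% were at least 2-fold lower and 4.45% higher. In the shortest quartile (median 6603 bases), 6.24% were lower and 9.34% higher. Within the upper 7 deciles of signal these were 7.10% and 3.45% for the longest and 2.54% and 8.49% for the shortest. The median ratios of the longest and shortest quartiles were -0.11 and 0.08, a gap that a common scaling factor leaves as it is.

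Hypoxia and glycolysis genes had 9 of 34 members lower and 3 higher, with a median of -0.11 (0.03, 0.27 and 0.45 under quantile, median and control scaling). ADM (adrenomedullin) read 4165 and 729 (5.71-fold lower) and PFKFB4, a regulator of glycolytic flux, 1071 and 297 (3.61-fold lower). PDK1, a kinase that inhibits pyruvate dehydrogenase, read 5857 and 2373, with all 3 probe sets lower. NDRG1 read 8241 and 4133. EGLN1, the oxygen-sensing prolyl hydroxylase (1.46), and HK2, a hexokinase (1.13), both chosen after their values were seen, were on the higher side. Cholesterol and lipid synthesis also divided, with 6 of 24 lower and 5 higher and a median of -0.15 that turned to 0.23 and 0.41 under median and control scaling and was -0.55 without probe sets marked _x_at or _s_at. MSMO1, a sterol oxidase, read 21688 and 8804 (2.46-fold lower), SQLE (squalene epoxidase) was lower on 4 probe sets from -1.62 to -0.93, SREBF2, the regulator of cholesterol synthesis, was lower on 3, from -1.14 to -0.61, and STARD4, a sterol carrier, had -0.65. SREBF1, the related regulator of fatty acid synthesis, had 1.35 and 1.48 and FASN, the fatty acid synthase, 1.02, both named after their values were seen.

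Among regulators of cell death, 5 of 30 BCL2 family and apoptosis genes were lower and 3 higher, with a median of -0.07 that turned to 0.31 and 0.50 under median and control scaling. BCL2L11, the gene of the pro-apoptotic protein BIM, read 4925 and 2321 on its brightest probe set, and all 7 probe sets were lower, from -1.83 to -0.58. BMF, a related BH3-only gene, was 2.30-fold lower, APAF1, the apoptosome scaffold, 2.00-fold on the brightest probe set, and TNFSF10, the death ligand TRAIL, had 3 probe sets from -1.19 to -0.89. MCL1, the survival factor on which many myeloma lines depend, chosen after its values were seen, had -0.80 on the brightest of 5 probe sets (25454 and 14662) and 0.26 on the dimmest. Targets of p53 had 3 of 23 lower and 4 higher, with a median of -0.01 (-0.00 after quantile normalization, and 0.37 and 0.55 under median and control scaling). PLK3, a stress kinase, was at least 4.39-fold lower, SESN1 -0.92, TP53INP1 -0.60 and PMAIP1 -0.52 (0.05 with the added controls). On the higher side the ratios of p53 targets reached 0.91.

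Of the enzymes that write, read or remove methyl groups on lysines 36 and 27 of histone H3, 4 of 20 were lower and 4 higher, with a median of -0.28 (-0.31, 0.10 and 0.29 under quantile, median and control scaling). EZH1, a lysine 27 methyltransferase, had -0.96 on its brightest probe set and was lower on 4 of 5. JARID2, a partner of that complex, had -0.96, -0.32 and -0.08, and KDM6B, a lysine 27 demethylase, was lower on 3 probe sets, from -1.48 to -0.86. PHF19, a reader of lysine 36 methylation in the same complex, read 9786 and 5324 (-0.88) and 7151 and 4413 (-0.70), and its dimmest probe set gave 0.69. RBBP4, a histone chaperone, was the highest at 1.98 with 6 probe sets down to -0.80, and SUZ12, a core subunit of the lysine 27 complex, had 1.36 and -1.19, both named after their values were seen. Histone genes had 3 of 21 lower and 1 higher (median -0.15, turning to 0.23 and 0.44 under median and control scaling). H2AC6 read 5374 and 2219.9, H2BC21 had -0.92, H2AC8 -0.74 and H4C8 -0.56 (0.01 with the added controls), and their transcripts mostly lack the poly(A) tail on which the labelling relies. Splicing regulators had 5 of 36 lower and 1 higher, with a median of 0.06, and 9 of 29 lower and 3 higher without probe sets marked _x_at or _s_at, with a median of -0.02. The lower members, named after their values were seen, were PTBP2 (-1.67), CLK1, a kinase of splicing factors (-0.94), RBM5 (-0.71), HNRNPA1 (-0.65) and LUC7L3 (-0.63). HNRNPH3 was highest at 0.77, with PTBP1 at 0.46 and RBM25 at 0.40, while HNRNPM had probe sets from -0.68 to 0.38. Autophagy and lysosome genes had 3 of 34 lower and 5 higher (median 0.02, and -0.04 after quantile normalization). CTSL, a lysosomal protease, was 2.11-fold higher, GLA, a lysosomal galactosidase, 2.05-fold, NPC2, a cholesterol carrier, 1.73-fold and MCOLN1, a lysosomal channel, 1.71-fold.

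**Figure D5:**
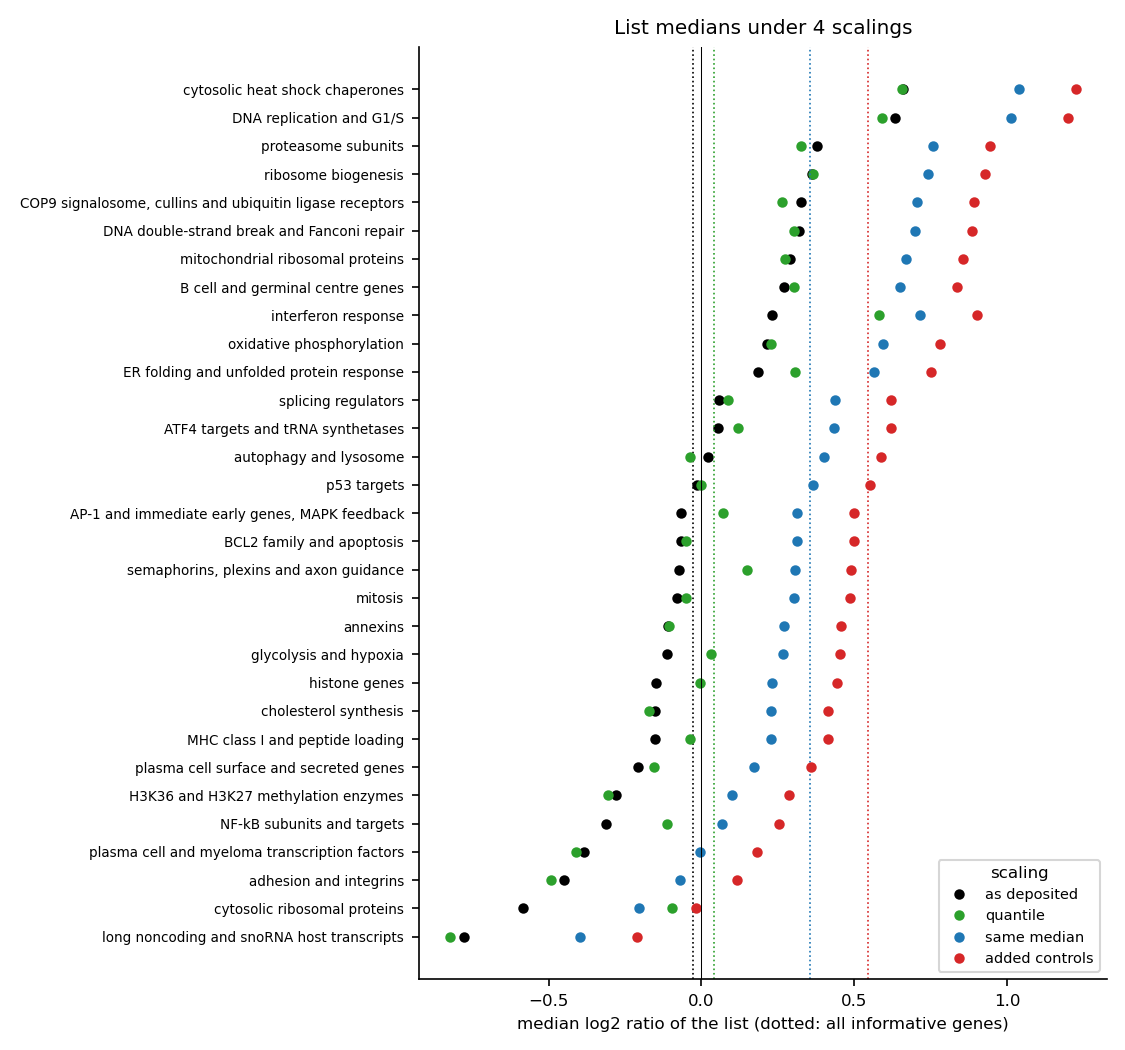
Median log2 ratio of shMMSET#4 over shLuc for 31 gene lists under 4 scalings of the arrays (deposited, quantile, same median, added controls), with dotted lines at the median of all informative genes in each. Median and control scaling move every list to the right by nearly the same amount, interferon genes by more. Several negative medians then turn positive, that of adhesion genes (-0.45 as deposited) with the added controls. Cytosolic ribosomal proteins move from -0.58 to -0.10 under quantile normalization.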

How the data were processed

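Biotin-labelled RNA of KMS11 cells was hybridised to Affymetrix arrays, per the labels' protocols. The authors deposited MAS5 intensities, which are linear signals, 1 for each probe set and array. MAS5 comes from the submitters' processing notes and GeneSpring from the design text, and neither version is known here. That text names a smaller array, whereas the deposited table holds 54675 probe sets with HG-U133 Plus 2.0 identifiers. The platform annotation, updated by Entrez identifier, gave 41091 probe sets 1 symbol, 1801 several and 11721 none, beside 62 controls.

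The 2% trimmed means agreed within 5%, and the deposited scaling was kept. Values under the 40th percentile of both arrays (42.5) were set to it. A probe set was informative where its mean floored log2 signal exceeded the median signal (68.5), and the brightest represents its gene. Thresholds were 2-fold for genes and 1.5-fold for lists.

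The rule for named genes took NSD2, the 15 lowest and 15 highest genes in full agreement, 5 on each side with 1 probe set, 5 in conflict and up to 4 from each of 31 lists on the side of its median, 163 genes in all. The 5 on each side had to be above the floor on both arrays, on a probe set not marked _x_at or _s_at. The comparison, the lists and the rule were chosen with earlier results of these data known. The number of arrays, 1 for each hairpin, limits the precision. Alternatives changed the scaling, floor, filter, probe set choice or threshold, 1 at a time. Calculations used Python 3.11.15, numpy 2.4.6, pandas 2.3.3 and matplotlib 3.10.9. They were tested on simulated data, with large changes put into bright genes of a copy of the shLuc array. That checks the calculation and not how well the calls made here hold.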

Additional observations from a re-analysis of the deposited data

How the results depend on the processing

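No paired analysis was possible because each hairpin has 1 array. In the order lower, higher, lower in full agreement and higher in full agreement, the counts were 904, 772, 129 and 96. They became 357, 1809, 44 and 292 with median scaling, 242, 2678, 29 and 508 with scaling to the added controls (an alternative chosen after seeing the data), 287, 409, 51 and 59 when filtered at the 75th percentile, 2215, 1907, 413 and 314 at 1.5-fold and 242, 211, 23 and 17 at 3-fold. Quantile normalization left 83 lower genes in full agreement, beside 612 and 1009 genes past 2-fold. A floor at the 60th percentile left 510 lower genes, and 37 and 50 in full agreement. Without a filter 81 lower genes were in full agreement. Leaving out probe sets marked _x_at or _s_at gave 82 and 39 there. The last setting and a filter change which probe sets are read, so fewer or other genes can pass. The other counts stayed within 1.5 times.

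Of the named genes, 10 turned direction in some setting, 4 of them past 2-fold as reported and 6 within it. With probe sets marked _x_at or _s_at left out, the log2 ratio of MRE11 was -0.11, of CREB3L2 0.025, of RRP12 -1.60 and of PLXNA2 0.25, since a dimmer probe set then stands for the gene. With the mean over informative probe sets RRP12 had -0.60. Of those within 2-fold, HNRNPM (-0.68 and -0.08) turned under both settings and KLHL8 (-0.44) with the mean, while NSD2 (0.10), S100A10 (0.06), H4C8 (0.01) and PMAIP1 (0.05) turned with the added controls. Of 31 lists, 12 kept the sign of their median in every setting, and 21 kept it relative to all informative genes. Signals near the floor limit the size of differences in dim genes.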
